A study of Sus scrofa with 20 samples.

Results

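miR-10a and miR-10b are miRNAs encoded inside the HOX gene clusters, the tandem arrays of transcription factor genes that pattern the body axis. They were taken by name, as 2 of 284 rows of the pig-reference count table (ssc-miR-10a-5p and ssc-miR-10b) and 2 of 608 rows of the human-reference table (hsa-miR-10a-5p and hsa-miR-10b-5p), so that 4 of 892 rows in all describe them. Both tables come from the same 20 small RNA libraries of PBMCs, the mononuclear fraction of peripheral blood that remains after a density gradient removes most red cells and granulocytes. The donors were female American Yorkshire pigs aged 80 to 90 days and weighing 36 to 41 kg. The 10 ICH libraries came from blood taken 6 h after an intracerebral hemorrhage, made by injecting 2 to 4 ml of the pig's own blood, with the pressure controlled, into white matter of the frontal lobe through a burr hole. The 10 Control libraries came from blood taken before the injection, with no treatment. Both groups carry the replicate numbers 1 to 10, and a number was taken as 1 pig sampled before and after. No sham-operated pigs were analysed here, so surgery and the passing of 6 h cannot be told apart from the bleed.

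Each miRNA hairpin can yield a product from its 5p arm and another from its 3p arm. miR-10a and miR-10b share their 5′ seed, the stretch that selects target mRNAs, and their 5p products differ by a single internal base. miR-10a represses inflammatory signalling in vascular endothelium and occurs in regulatory T cells of mice, and miR-10b is best known from human tumour cells, where it represses HOXD10. miR-196, another miRNA family of the HOX clusters, targets HOX mRNAs. miR-99a, miR-99b and miR-100 are relatives of miR-10 in sequence.

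The hairpin of miR-10a lies on chromosome 12 at 24833644 to 24833723 in the Sscrofa11.1 RefSeq annotation, inside no other annotated gene. Its nearest coding neighbours are HOXB3, 6086 bases away, and HOXB5, 11500 bases away on the other side. The hairpin of miR-10b lies on chromosome 15 at 81951644 to 81951723, also inside no other gene. On one side the nearest coding gene is LOC110257186, 10260 bases away, and on the other it is HOXD3, 17758 bases away. The 2 genes are therefore on separate chromosomes, in the HOXB and HOXD clusters.

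Depth was 896960 to 2103685 pig-reference reads in ICH libraries and 949545 to 2091205 in Control libraries, and the ICH library was the deeper in 6 of 10 replicate numbers. All 4 rows passed edgeR's filter on low counts. For miR-10a-5p, miR-10b and miR-10a-3p the pig-reference and human-reference counts were equal in 20 of 20 libraries. The human-reference values of the members are thus the same reads scaled over another table's rows, and they are given only where the scaling matters. PBMC miRNAs were abundant in every library: miR-150 of mature lymphocytes lay at 5896 to 14053 CPM in ICH and 7467 to 16127 CPM in Control, where CPM are counts scaled to a common library size by edgeR's TMM method.

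miR-10a-5p rose after ICH and was by far the more abundant of the pair. It was read 927 to 2821 times in ICH libraries (median 1567) and 693 to 2041 times in Control libraries (median 1144.5), and ranked 56 of 284 pig rows by total reads. In CPM, the ICH libraries had 747.1 at the lowest, 1193 at the median and 1898 at the highest, against 538.3, 935 and 1341 in Control libraries. The groups overlapped: 3 ICH libraries lay above every Control library, and 3 Control libraries lay below every ICH library. The lowest ICH library was number 4, whose Control library was the second lowest of its own group.

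Within replicate numbers the direction was uniform. miR-10a-5p was higher in the ICH library in 10 of 10 numbers, by 1.08-fold in number 9 at the least and by 1.96-fold in number 7 at the most, with a median of 1.30-fold. The larger rises were 1.55-fold in number 1, 1.65-fold in number 8 and 1.76-fold in number 10. Counting error was 0.0419 to 0.0704 on the log2 scale per number, while the 10 changes themselves had an SD of 0.315. It was small beside the larger rises but not beside the smallest. Number 9 rose by 0.11 with a counting error of 0.054, and number 2 by 0.14 with 0.064. With plain library totals in place of TMM scaling, 9 of 10 numbers were higher, and number 3 had 1247 CPM in ICH and 1248 CPM in Control.

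**Figure D1:**
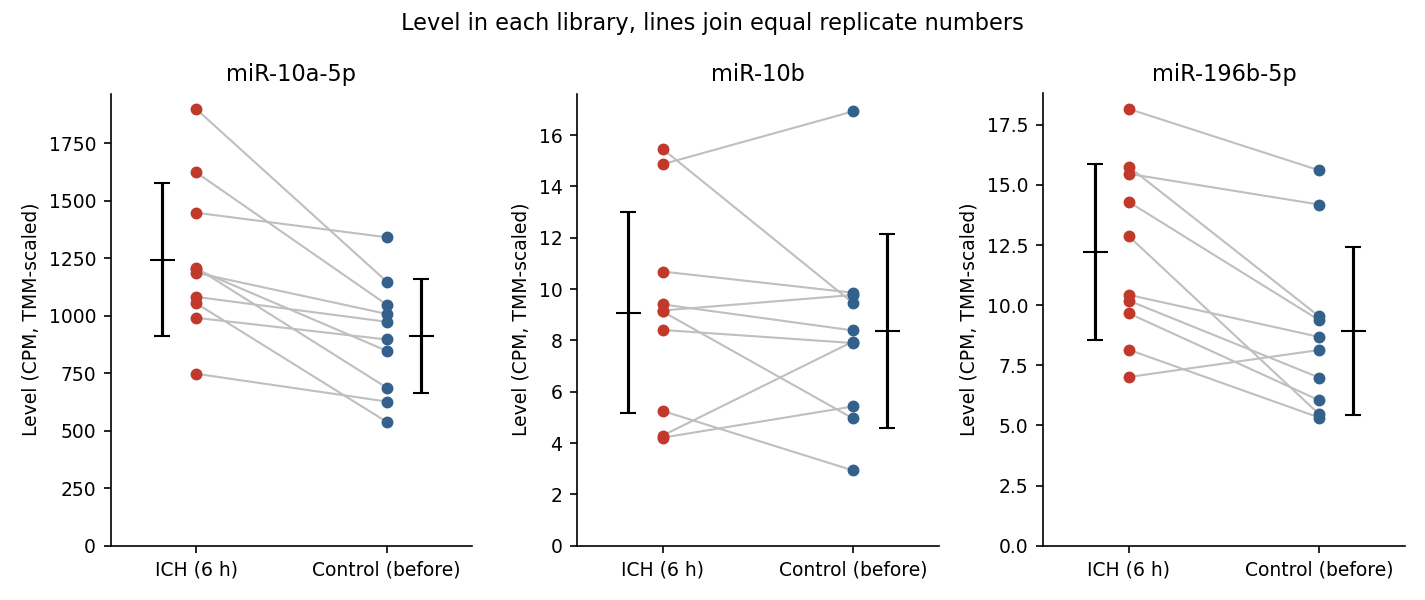
Level of miR-10a-5p, miR-10b and miR-196b-5p in CPM (y axes, from 0, pig-reference counts, TMM-scaled) in the 10 ICH and 10 Control libraries (points), with lines joining equal replicate numbers and black bars for the mean and SD. Every miR-10a-5p line is higher at ICH (10 of 10), whereas miR-10b lines run both ways (6 of 10 higher).

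The mean level of miR-10a-5p was 1243 ± 332 CPM in ICH and 911.3 ± 246.5 CPM in Control (SD, n = 10 each). Its log2 fold change was 0.45 ± 0.10 (SE; 95% interval 0.24 to 0.66; edgeR quasi-likelihood test with the replicate number as a block, Benjamini-Hochberg adjusted p = 0.00309 over 179 miRNAs tested), a 1.37-fold rise. In the same fit 11.7% of all miRNAs tested were called higher in ICH, 10.1% lower and 21.8% in either direction. By p value miR-10a-5p ranked 14 of 179, and by size of rise 17 of 179. Without the block the fold change was 0.45 ± 0.17 and the adjusted p 0.125, with 0% of miRNAs called (35 of 179 at an unadjusted p under 0.05), so the call is one of change within replicate numbers. In these bulk samples, more cells of a type and more RNA per cell cannot be told apart.

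The human-reference fit moved the size and not the call. The same counts gave 0.52 ± 0.10 there (SE; edgeR with the block, adjusted p = 0.000901 over 245 miRNAs, of which 13.1% were called higher in ICH and 19.2% in either direction). Without the block it was 0.52 ± 0.17 (adjusted p = 0.0801), in a fit that called 3.67%. With plain library totals in place of TMM scaling, and with the block, the log2 fold change was 0.406 in the pig-reference and 0.411 in the human-reference counts.

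**Figure D2:**
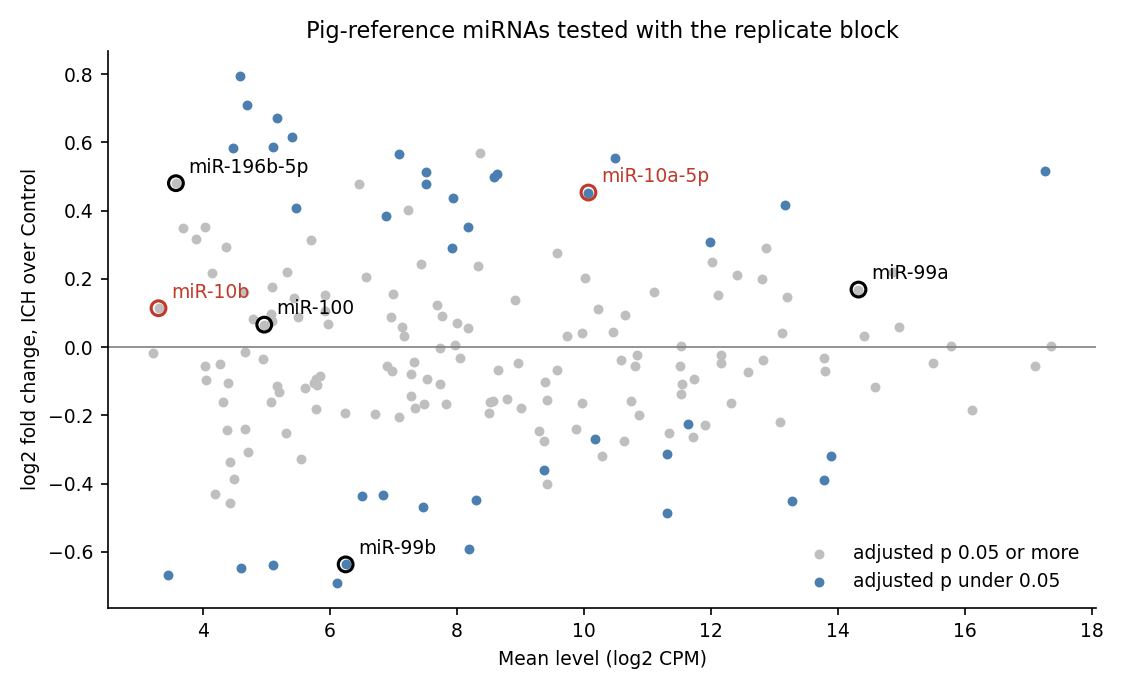
log2 fold change of ICH over Control (y axis) against mean log2 CPM (x axis) for the 179 pig-reference miRNAs tested with the replicate block, one point each; blue points passed an adjusted p of 0.05. miR-10a-5p sits at 0.45 among the called rises, miR-10b at 0.11 near the low end of the levels tested, and miR-99b at -0.64.

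miR-10b was scarce. It had 6 to 20 reads in ICH libraries (median 11) and 4 to 16 in Control libraries (median 11.5), and 118 reads in all ICH libraries against 109 in all Control libraries. That is 4.21 CPM at the lowest, 9.15 at the median and 15.5 at the highest in ICH, and 2.93, 8.17 and 16.9 CPM in Control. No ICH library exceeded every Control library, and the ranges overlapped almost fully. It ranked 179 of 284 pig rows by total reads.

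No change in miR-10b was detectable at this depth. Its mean was 9.09 ± 3.93 CPM in ICH and 8.36 ± 3.78 CPM in Control (SD, n = 10 each), and it was higher in 6 of 10 numbers and lower in 4. The log2 fold change was 0.11 ± 0.21 (SE; 95% interval -0.33 to 0.56; edgeR with the block, adjusted p = 0.731). That interval includes the 0.45 measured for miR-10a-5p. Counting error alone was 0.484 to 0.904 on the log2 scale per replicate number, as large as most of the changes. In number 7, where miR-10a-5p rose the most, miR-10b had 6 reads in ICH and 16 in Control, and in number 5 it had 14 and 8.

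**Figure D3:**
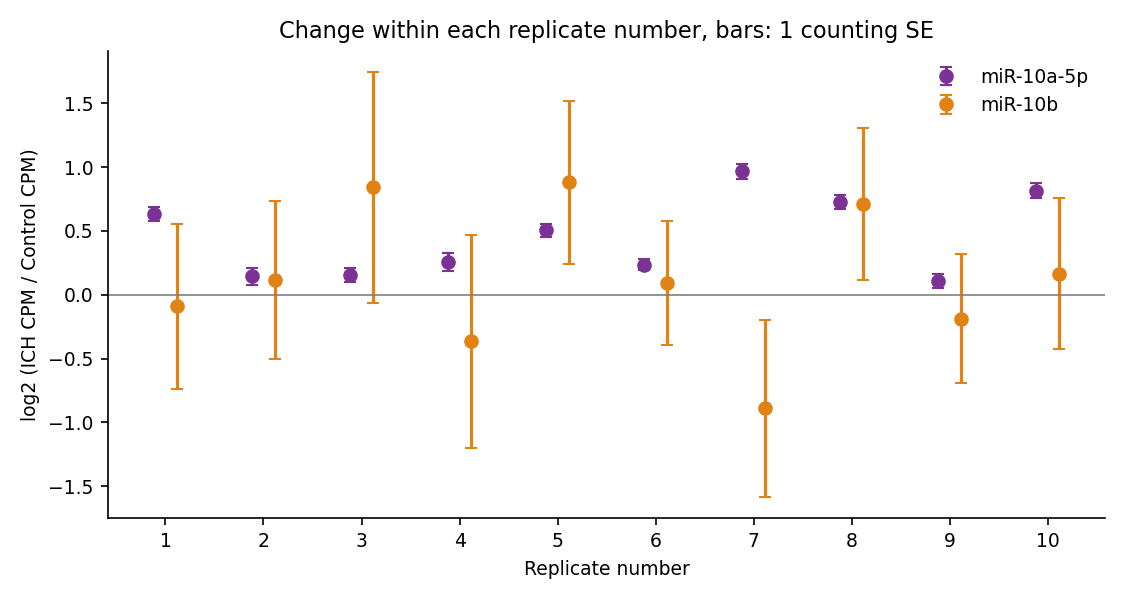
Change of miR-10a-5p (purple) and miR-10b (orange) within each replicate number (x axis), as log2 of ICH CPM over Control CPM (y axis), with bars of 1 counting standard error. The 10 purple points lie above 0 with bars of at most 0.0704, and the orange points lie on both sides of 0 with bars of 0.484 or more.

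The difference between the paralogs was tested as a ratio within each library, which needs no scaling between libraries. miR-10b reads were 0.407% to 1.08% of miR-10a-5p reads in ICH libraries (median 0.735%) and 0.301% to 1.48% in Control libraries (median 0.899%). Pooled over libraries the share was 0.721% in ICH and 0.902% in Control. The log2 ratio of miR-10a-5p to miR-10b was 7.11 ± 0.43 in ICH and 6.78 ± 0.63 in Control (SD, n = 10 each). It was higher in ICH in 8 of 10 numbers, by 0.33 ± 0.21 on average (SE; 95% interval -0.15 to 0.81), which did not pass an exact two-sided sign-flip test over the 10 numbers (p = 0.135; adjusted p = 0.189 over 7 ratios). The rise of miR-10a-5p is therefore not shown to differ from the change of miR-10b. The smallest p this test can give with 10 numbers is 0.00195. Without number 3, where miR-10b had 7 reads in ICH and 4 in Control, the difference was 0.44 (exact sign-flip p = 0.043), and with a pseudocount of 5 in place of 0.5 it was 0.36 (p = 0.041), both before adjustment; without number 7 it was 0.17.

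Because the 5p products are near-identical, the split of reads between them depends on how the authors assigned reads with mismatches, a rule that is not stated in the labels or files. The authors' filter kept 97.3% of miR-10a-5p reads and 61.7% of miR-10b reads. Among the 30 pig rows kept by the filter that averaged 5 to 20 reads per library, the share kept had a median of 72.5% and ran from 40.7% to 86.8%, and 5 of them lay below miR-10b. The SD of the log2 ratio between libraries was 0.43 in ICH and 0.63 in Control, against 0.46 and 0.48 from counting error alone. Whether part of the miR-10b reads are misread miR-10a was not tested.

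The other arms of both hairpins were rare. miR-10a-3p had 4 to 13 reads per ICH library and 1 to 19 per Control library, with 87 reads in each group, and did not pass the filter on low counts. It made up 0.529% of all miR-10a reads in ICH and 0.715% in Control, pooled over libraries. Control number 10 held the single read at the low end, against 12 reads in its ICH library. miR-10b-3p was listed in the human-reference table, with 1 read in 1 Control library and 0 reads in the ICH libraries.

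Of the miR-196 family, miR-196b-5p was measurable and the other rows were close to 0. miR-196b-5p had 8 to 34 reads in ICH libraries (median 15) and 5 to 19 in Control libraries (median 12). Its level was 7.02 CPM at the lowest, 11.6 at the median and 18.2 at the highest in ICH, and 5.33, 8.41 and 15.6 CPM in Control, with overlapping groups. The ICH library was higher in 9 of 10 numbers; number 4 was the exception, with 10 reads in ICH and 9 in Control but 7.02 and 8.14 CPM. The log2 fold change was 0.48 ± 0.18 (SE) in the pig-reference fit, with an adjusted p of 0.065 (edgeR with the block) that missed the threshold.

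In the human-reference fit the value of miR-196b-5p was 0.56 ± 0.20 with an adjusted p of 0.0493 (edgeR with the block), although the counts differed by 1 read in 1 of 20 libraries. Of 18 alternatives to that human-reference fit, 17 lost the call, with adjusted p of up to 0.337. miR-196b-3p had 2 reads in 2 ICH libraries and 0 in Control, and miR-196a-5p had 1 read in 1 ICH library in the human-reference table. Among HOX cluster miRNAs tested in the pig-reference counts, 1 of 3 rose (miR-10a-5p) and 2 did not pass, beside 11.7% of all 179 miRNAs called higher. In the human-reference fit 2 of 3 rose (miR-10a-5p and miR-196b-5p), beside 13.1% called higher. The 3 include miR-10a-5p and miR-10b themselves, so they give no separate evidence of a trend in the HOX clusters.

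The sequence relatives of miR-10 did not move together. miR-99a, whose hairpin lies on chromosome 13 at 181302483 to 181302562, was the most abundant of them, at 11848 to 30364 CPM in ICH and 13041 to 24295 CPM in Control. Its log2 fold change was 0.17 ± 0.083 (SE; edgeR with the block, adjusted p = 0.156). miR-99b fell, with 31.5 to 80.4 CPM in ICH and 62.6 to 156.1 CPM in Control, and was lower in 10 of 10 numbers (-0.64 ± 0.13, adjusted p = 0.00245). miR-100 had 14 to 47.6 CPM in ICH and 21 to 39.7 CPM in Control, and a log2 fold change of 0.07 ± 0.15 (adjusted p = 0.749). With their cluster partners let-7c, let-7e, miR-125a and miR-125b, 1 of 7 rose (let-7c, 0.31 ± 0.10), 2 fell (miR-99b and miR-125a) and 4 did not pass, with a median of 0.04. Of all miRNAs tested, 11.7% were called higher and 10.1% lower.

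Ratios within libraries showed where miR-10a departed from these relatives. Relative to miR-99a, miR-10a-5p was higher in ICH by 0.28 ± 0.097 on the log2 scale (SE; 8 of 10 numbers; exact sign-flip test, adjusted p = 0.0308 over 7 ratios). Relative to miR-100 it was higher by 0.43 ± 0.12 (9 of 10 numbers; exact test, adjusted p = 0.0308). Relative to miR-99b, which itself fell, it was higher by 1.10 ± 0.13 in 10 of 10 numbers (exact test, adjusted p = 0.0137). The authors' filtered counts left the miR-99a ratio at 0.28 but just past the threshold (exact sign-flip test, adjusted p = 0.0501).

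The ratios of miR-10b were less precise. Relative to miR-99a miR-10b differed by -0.05 ± 0.20 (SE; 95% interval -0.50 to 0.40; exact test, adjusted p = 0.822), and relative to miR-100 by 0.09 ± 0.22 (95% interval -0.40 to 0.59; adjusted p = 0.788, exact test). Relative to miR-99b it was higher by 0.77 ± 0.24 in 9 of 10 numbers (exact test, adjusted p = 0.0308).

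**Figure D4:**
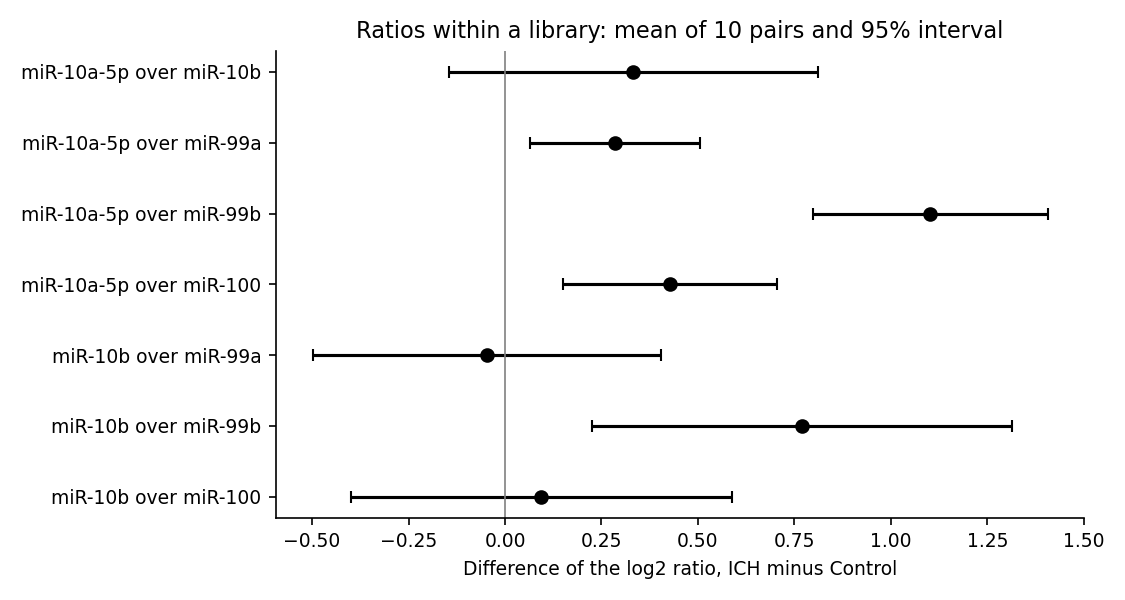
Difference between ICH and Control in 7 log2 ratios within a library (x axis), with the mean of 10 replicate numbers (points) and its 95% interval (bars). The miR-10a-5p ratios to miR-99a, miR-99b and miR-100 have intervals above 0, and the ratio of miR-10a-5p to miR-10b spans 0, from -0.15 to 0.81.

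Levels of both members tended to be kept within a replicate number. Across the 10 numbers, the ICH level of miR-10a-5p went with its Control level (log2 CPM, Pearson's r = 0.684, permutation p = 0.0286, adjusted p = 0.0307 over 2 relations; Spearman's rho = 0.709, permutation p = 0.0271, adjusted p = 0.0271). Without numbers 4 and 7, whose Control levels lay farthest from the median, the Pearson r was 0.551 (exact permutation p = 0.151, n = 8). Leaving out the extremes narrows the range and lowers n, so this cannot decide whether the relation rests on those 2 numbers. For miR-10b the values were r = 0.674 (permutation p = 0.0307, adjusted p = 0.0307) and rho = 0.745 (permutation p = 0.0174, adjusted p = 0.0271). Without numbers 3 and 9, left out in the same way, its r was 0.499 (exact permutation p = 0.176, n = 8), with the same limit. No relation between the changes of the paralogs was shown across numbers (r = -0.186, permutation p = 0.605; rho = -0.006, permutation p = 1.0), and the value moved from r = -0.482 with library totals as the scaling (permutation p = 0.159) to r = 0.378 without numbers 7 and 10. The counting error of each miR-10b change, 0.48 to 0.90 on the log2 scale, limits this comparison.

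The spread between replicate numbers was wider for miR-10b. The SD of the mean log2 CPM of a number was 0.36 for miR-10a-5p, 0.51 for miR-10b and 0.31 at the median of the 179 miRNAs tested, which placed them at ranks 62 and 21 from the most variable. In the same log2 CPM values, the SD of the change was 0.31 for miR-10a-5p, 0.45 for miR-10b and 0.36 at the median. From plain log2 ratios of ICH CPM over Control CPM, the SD was 0.315 for miR-10a-5p and 0.562 for miR-10b. The 0.45 thus understates the spread of the plain ratios for miR-10b. The median of all miRNAs is not given for plain ratios, and whether the SDs between numbers shift likewise was not tested. Scarce miRNAs carry more counting error, and its part in these ranks was not tested.

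The pig miRNAs whose levels across the 20 libraries were most like those of miR-10a-5p were miR-486 (Pearson's r = 0.869), miR-181d-5p (0.853), miR-182 (0.789), let-7c (0.749) and miR-9841-3p (0.728). All 5 were called higher in ICH, with log2 fold changes of 0.31 to 0.57, so the libraries they share include the group difference. miR-10b came at rank 22 in this order (r = 0.533) and miR-196b-5p at rank 43 (r = 0.378). For miR-10b the first 5 were let-7i (0.692), miR-7 (0.606), let-7c (0.603), miR-182 (0.579) and miR-9860-5p (0.546), of which let-7c and miR-182 were called higher. These correlations describe 20 libraries in 10 pairs and carry no test.

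miR-486, the closest match of miR-10a-5p, is a red cell miRNA made from the ANK1 locus. It had 65.2 to 252.9 CPM in ICH (median 153.6) and 34.4 to 165 CPM in Control (median 108.7), and was higher in 9 of 10 numbers (log2 fold change 0.57 ± 0.13 SE, adjusted p = 0.00398, edgeR with the block). Of the 3 erythroid miRNAs in the pig-reference fit, miR-486 was the one called, and miR-144 (0.40, adjusted p = 0.065) and miR-451 (0.57, adjusted p = 0.158) did not pass. Of all miRNAs in that fit, 11.7% were called higher. In the human-reference fit 2 of 4 erythroid rows rose, miR-486-5p (0.63 ± 0.13 SE, adjusted p = 0.00107, edgeR with the block) and miR-144-3p (0.47 ± 0.14 SE, adjusted p = 0.0212), and the other 2 did not pass. Of all miRNAs there, 13.1% were called higher. The summed erythroid level ran from 397.1 to 1327 CPM in ICH and from 110.3 to 910.9 CPM in Control in the pig-reference counts, higher in 7 of 10 numbers, and from 429.3 to 1334 CPM in ICH and from 110.9 to 812.8 CPM in Control in the human-reference counts, higher in 10 of 10. In the other 3 numbers of the pig-reference counts (1, 5 and 6) the sum was nearly level, at 0.976-, 0.955- and 0.995-fold, while miR-486 was 1.39-, 1.38- and 1.46-fold and miR-10a-5p 1.55-, 1.42- and 1.18-fold its Control level. In number 3, where miR-486 fell to 139.6 CPM in ICH, against 165 CPM in Control, miR-10a-5p was 1.11-fold higher. That rise depended on the scaling: with plain library totals miR-10a-5p had 1247 CPM in ICH and 1248 CPM in Control.

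**Figure D5:**
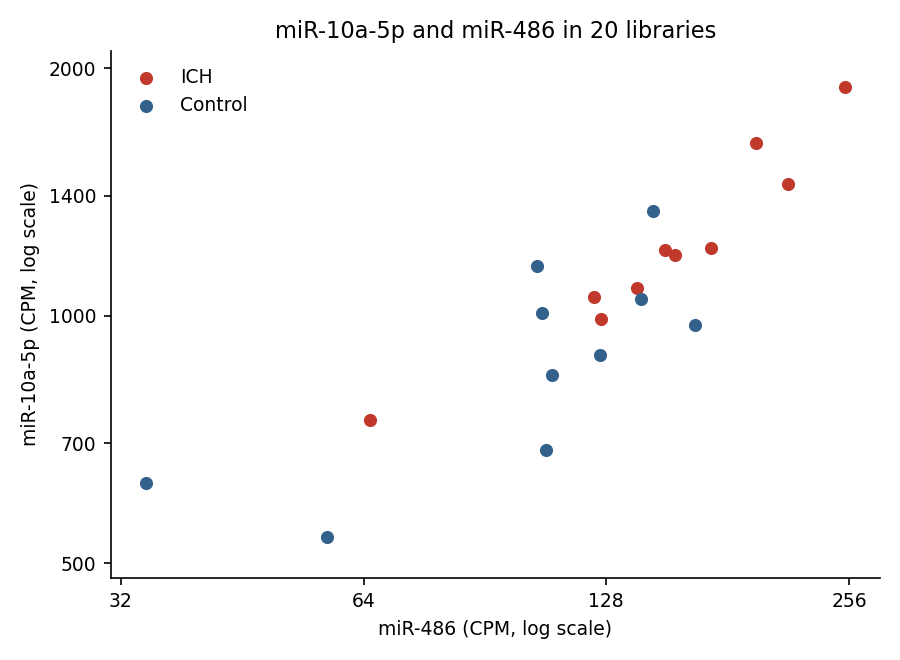
Level of miR-10a-5p (y axis, CPM, log scale) against miR-486 (x axis, CPM, log scale) in the 10 ICH (red) and 10 Control (blue) libraries, one point per library. Libraries rich in miR-486 were rich in miR-10a-5p (Pearson's r = 0.869 of log2 CPM), and the 3 libraries highest in both were ICH libraries.

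Markers of other cell types were measured beside the members. The endothelial and smooth muscle miRNAs miR-126, miR-143 and miR-145 summed to 321.3 to 628.5 CPM in ICH and 249.5 to 514.6 CPM in Control, higher in 10 of 10 numbers. This sum followed miR-126-3p of endothelium and platelets, the 1 of 3 tested rows that rose (0.50 ± 0.098 SE, adjusted p = 0.00232, edgeR with the block). miR-143-3p of smooth muscle did not pass (-0.09), and miR-145-5p was at 0 CPM at the median in both groups. In the wider vessel wall list 1 of 10 tested rows rose and 9 did not pass, near the 11.7% of all miRNAs called higher, with a median log2 fold change of -0.13; miR-27b-3p came next by p (-0.25, adjusted p = 0.0547). The human-reference fit likewise gave 1 of 10 vessel wall rows higher and 9 not passing. The part of endothelial or red cell RNA in the rise of miR-10a-5p was not tested.

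The myeloid list held different tested rows in the 2 tables. Its 3 called rows, all in the human-reference fit, had no tested row of the same arm in the pig-reference fit. The rows of miR-22, miR-23a and miR-24 did not pass in either fit. In the human-reference fit 3 of 9 tested rows rose and 6 did not pass, beside 13.1% of all miRNAs called higher: miR-223-5p (0.82 ± 0.12 SE, adjusted p = 6.75e-05, edgeR with the block), miR-27a-5p (0.73 ± 0.11, adjusted p = 8.34e-05) and miR-223-3p (0.63 ± 0.15, adjusted p = 0.00856). These 3 kept their calls in the fit without the block (adjusted p = 0.0235, 0.0263 and 0.0263). The human-reference myeloid sum was 22292 to 25197 CPM in ICH and 19411 to 22477 CPM in Control, higher in 9 of 10 numbers. The pig-reference sum was nearly level, at 19494 to 23188 CPM in ICH (median 21511) and 19393 to 22904 CPM in Control (median 21235). It was higher in 7 of 10 numbers. Of 6 myeloid rows in the pig-reference fit 0 passed in either direction (edgeR with the block, with 0 at an unadjusted p under 0.05; DESeq2 and limma voom also called 0, with 1 and 0 at an unadjusted p under 0.05); miR-22-3p (0.15, adjusted p = 0.16) and miR-24-1-5p (0.12, adjusted p = 0.379) had the smallest p values, and miR-223 was not analysed there.

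Of 4 tested platelet rows 1, miR-126-3p, was higher and 3 did not pass, beside 11.7% of all miRNAs called higher. By p miR-126-5p came next (0.32, adjusted p = 0.317, edgeR with the block). The human-reference fit gave 1 of 5 higher and 4 not passing, beside 13.1% of all miRNAs called higher. The pig-reference sum ran from 2520 to 4694 CPM in ICH and from 2764 to 4469 CPM in Control. In the lymphocyte list 5 of 6 rows fell and 1 did not pass, beside 10.1% of all miRNAs called lower, with sums of 20690 to 36517 CPM in ICH and 27380 to 40552 CPM in Control, higher in 1 of 10 numbers; miR-29a (-0.49) and miR-181a (-0.39) had its smallest p values. In the human-reference fit 4 of 9 lymphocyte rows fell and 5 did not pass, beside 6.12% of all miRNAs called lower, and the sum was higher in 1 of 10 numbers. Of the 4 rows of PBMC-defining miRNAs, 3 fell and 1 did not pass (human-reference fit, 2 of 6 fell and 4 did not pass). This list shares miR-150 and miR-181a with the lymphocyte list, so most of its falls were already counted above. Only miR-142-5p in the pig-reference fit (-0.32, adjusted p = 0.0264, edgeR with the block) was a further fall. Lymphocyte miRNAs thus fell, and miR-223 and miR-27a-5p of the myeloid list rose, in the same libraries in which miR-10a-5p rose. The other 6 of 9 human-reference myeloid rows did not pass, among them miR-27a-3p (0.04) and miR-23a-3p (-0.04). The part of cell composition in the rise of miR-10a-5p was not tested.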

How the data were processed

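The labels' protocols give total RNA of PBMCs, 500 ng of it per NEBNext small RNA library. The authors deposited raw read counts of each miRNA in each library, for a pig and for a human miRNA reference, a filtered version of each, and RPM (read counts scaled to library size) that the authors computed from the filtered counts, which on checking they matched within 0.005 RPM. Per the submitters' processing notes, bcl2fastq, FastQC and Bowtie were used, with the builds Sscrofa11.1, GRCh38 and hg38; no versions, counting rule or filter settings are given there.

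Unfiltered counts were tested with edgeR 4.0.16 under R 4.3.3 (low counts removed by filterByExpr, TMM scaling, robust quasi-likelihood fit, replicate number as a block) over each whole table, with Benjamini-Hochberg adjustment and a threshold of 0.05. Ratios used a pseudocount of 0.5 and exact sign-flip tests over 1024 sign patterns; correlations used 100000 permutations. Alternatives used DESeq2 1.42.0 and limma 3.58.1, among other settings. The fit was also run on simulated counts. The outcome is not reported here, so that run gives no measure of accuracy for these data.

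The series' design text describes a sample before ICH and another 6 h later. Equal numbers deviated together from their group means in 10 of 10 cases (correlations 0.129 to 0.768, minimum 0.1), against a median of -0.065 between different numbers, and were taken to pair the libraries. Centring on group means itself draws the values between different numbers below 0, so -0.065 is no neutral baseline. The lowest value, 0.129, lay close to the minimum, so this check alone cannot establish each pair. The labels do not name the animals.

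The rule for named miRNAs took the members, their 3p rows, miR-196 and miR-615 rows (miR-615 was not analysed here), miR-99 and miR-100, the 5 rows most correlated with each member, and the 2 smallest p values of each list. The other marker miRNAs named, such as miR-451, miR-143-3p, miR-145-5p and miR-223-3p, fall outside it and were chosen after their values were seen. The members and lists were chosen with earlier results of these data known. Marker lists were matched by miRNA name whatever the species prefix or arm, and miR-126 and miR-24 stand in several. Intervals cover the spread between replicate numbers, and counting errors cover counting only, since the reads carry no molecular identifiers and may copy one molecule. Read counts of different miRNAs also carry differences in adapter ligation. Positions came from the RefSeq gene table of Sscrofa11.1. No sequences are printed.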

Additional observations from a re-analysis of the deposited data

How the results depend on the processing

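miR-10a-5p kept its direction under all 18 alternatives in each table, at 0.40 to 0.57 on the log2 scale in the pig-reference and 0.40 to 0.53 in the human-reference counts, and lost its call under 1, the fit with no replicate block (0.45 and 0.52; edgeR adjusted p = 0.125 and 0.0801). Leaving out each replicate number gave 0.40 to 0.52 (adjusted p of up to 0.011) and 0.44 to 0.53. miR-10b was higher and not called under 17 alternatives in each table (0.02 to 0.25 and 0.02 to 0.29), and the authors' filtered counts gave no value, since it then failed the low-count filter. The number of miRNAs called was 39 of 179 pig-reference and 47 of 245 human-reference with the block, and 0 and 9 without it, when 35 and 45 had an unadjusted p under 0.05. Leaving out a number gave 27 to 59 and 32 to 61; without number 4 the pig-reference count was 59. Upper-quartile scaling moved the pig split from 21 higher and 18 lower to 35 and 9, and the human split from 32 and 15 to 18 and 29; library totals gave 16 and 20, and 15 and 24. The median log2 fold change of all miRNAs was -0.04 and moved to 0.08 (pig, upper quartile); it was 0.03 and moved to -0.09 (human, upper quartile) and -0.08 (human, library totals). Relative to it miR-10a-5p stayed higher.

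The ratio of miR-10a-5p to miR-10b passed an unadjusted 0.05 with a pseudocount of 5 (0.36) and ran from 0.17 to 0.44 without each number in both tables; unpaired, with no replicate block, it was 0.33 (permutation p = 0.187). With the authors' filtered counts, the ratios of miR-10a-5p to miR-99a (0.28, exact test, adjusted p = 0.0501) and of miR-10b to miR-99b (0.73, adjusted p = 0.0718) lost their calls. miR-100 ran from -0.012 (without number 6) to 0.19 when each number was left out. With upper-quartile scaling the pig-reference values of miR-196b-5p (0.60, adjusted p = 0.035) and miR-99a (0.28, adjusted p = 0.0226) passed, as did miR-196b-5p without number 4 (0.58). The cause of these shifts was not tested. RPM, pseudocount and filtered-table alternatives for the relatives, and library totals for the correlations, were added after seeing the data. Depth limits miR-10b, miR-10a-3p and miR-196b.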
